A study of Mus musculus with 3 samples.

Results

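Heat shock and chaperone genes are described here through 10 mouse genes taken by symbol from a list: the regulator Hsf1, the HSP70 genes Hspa8, Hspa5, Hspa1a and Hspa1b, the HSP110 gene Hsph1, the HSP90 genes Hsp90aa1 and Hsp90ab1, the J-domain gene Dnajb1 and the small heat shock protein gene Hspb1. All 10 were found among the 55536 annotated genes of the tables, of which 22028 are protein-coding. Total RNA depleted of ribosomal RNA was sequenced from the chromatin fraction of bone-marrow-derived macrophages of C57BL/6J mice. These primary cells had been treated with lipid A, the TLR4-activating lipid of bacterial lipopolysaccharide, at 100 ng/ml for 20 min. The series holds 1 group of 3 libraries, biological replicates 1, 2 and 3, started from 1000, 250 and 500 ng of RNA. The labels give 1 donor entry and separate biosamples without saying that the animals differed, and they give neither the age nor the sex of the mice, so a spread between libraries may be technical. Untreated cells were not analysed here, so the values are levels after treatment and hold no measure of induction.

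Heat shock proteins are chaperones: they bind unfolded or partly folded proteins, help them to fold, and keep them from clumping. Members of the HSP70 family bind short exposed stretches with the help of J-domain partners and of HSP110 exchange factors, while HSP90 acts later on kinases, receptors and other clients. HSF1, held inactive by chaperones in unstressed cells, is released when unfolded proteins accumulate and then binds heat shock elements, repeats of the unit nGAAn in alternating orientation, in the promoters of inducible genes such as Hspa1a. In macrophages HSP90 and HSP70 are known partners of signalling kinases and receptors downstream of TLR4. RNA bound to chromatin is rich in nascent and incompletely spliced transcripts, so a level in this fraction is not the level of mature cytoplasmic mRNA.

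The gene tables held 12439931 to 16317439 expected counts per library. Macrophage identity was checked on markers: 8 of 8 macrophage markers reached 1 TPM (a length-corrected share of all transcripts) in every library, with Cd14 highest at 191 ± 144 TPM (SD, n = 3) and Fcgr1 lowest at 13.3 ± 4.59 TPM. In the gene tables none of 13 markers of other cell types did, 4 of them had no count, and their summed level was 0.650 to 1.11 TPM against 588 to 1015 TPM for the macrophage markers. The highest of the 13 was Pecam1 at 0.343 ± 0.101 TPM and the lowest with any count was Pdgfra at 0.00667 ± 0.00577 TPM. A second set of transcript tables was made by the authors directly from the reads, and there 3 of the 13 reached 1 TPM in every library, and Pecam1 had a mean of 5.34 TPM and Pdgfra 0.457 TPM. In bulk RNA fewer cells of a type and less RNA per cell cannot be told apart. Protein-coding genes took 15.8%, 18.0% and 24.7% of the TPM of replicates 1, 2 and 3, and small nucleolar RNAs 55.7%, 46.4% and 40.4%. TPM values of coding genes were therefore scaled down most in replicate 1. Counts scaled to a common library size with TMM factors (normalised CPM) are given beside TPM wherever libraries are compared, while TPM, which accounts for length, is used between genes.

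Chromatin RNA of the 10 genes ranged over 2 orders of magnitude, from Hspa8 at 114 ± 39.0 TPM to Hspb1 at 0.580 ± 0.0781 TPM (SD, n = 3) in the gene tables. Hspa8 and Hspa5 led, and both HSP90 genes and Hsf1 followed at 16.4 to 35.5 TPM. Hsph1 came next at 4.86 ± 1.63 TPM, and Hspa1a, Hspa1b, Dnajb1 and Hspb1 stood last at 0.580 to 1.31 TPM. Of the 10, 7 reached 1 TPM in every library, or 70.0%, beside 40.6% of all protein-coding genes (8942 of 22028). The median of log2(TPM + 0.1) over the members was 3.18, beside -0.93 over all protein-coding genes. Members below 1 TPM in at least 1 library were Dnajb1, Hspa1b and Hspb1.

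**Figure D1:**
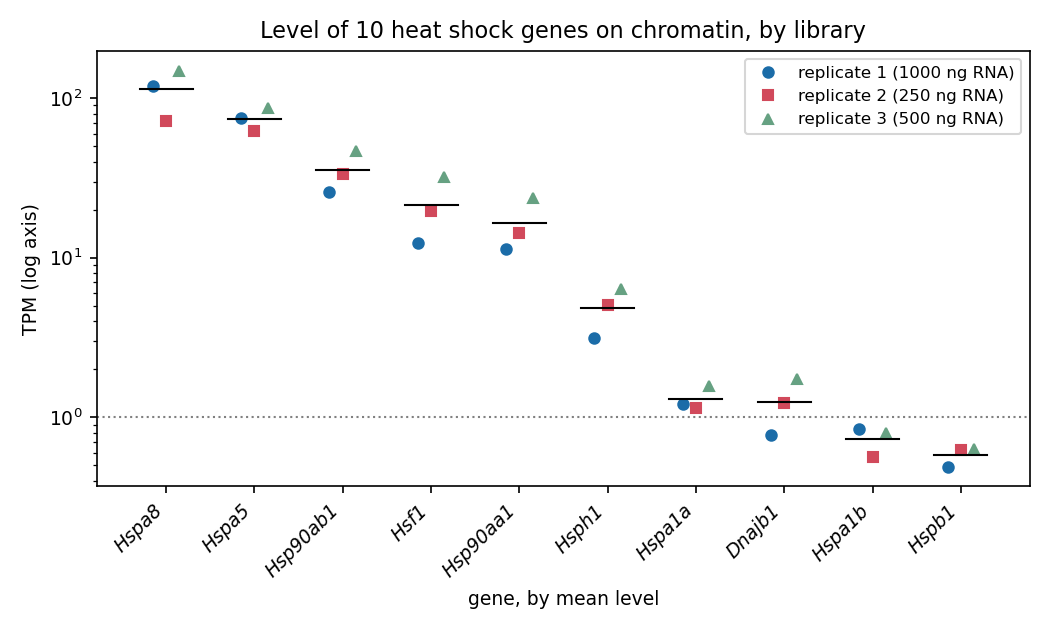
Level of each of the 10 genes in TPM (log axis), with 1 point per library and a bar for the mean; a dotted line marks 1 TPM. Hspa8 and Hspa5 lie at 62.2 TPM or more in every library, and Hspa1a, Dnajb1, Hspa1b and Hspb1 lie between 0.490 and 1.74 TPM, near the line.

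Hsf1 (ENSMUSG00000022556.11, mm10 chr15:76477422-76501913, plus strand) encodes the transcription factor that switches on heat shock genes. Its level was 12.4, 19.5 and 32.0 TPM in replicates 1, 2 and 3, and its TMM-normalised level was 36.7, 45.6 and 48.7 CPM. Replicate 1 was lowest on both scales, and the normalised values spanned only 1.33-fold. Hsf1 thus lay above 89.7% of protein-coding genes in mean TPM, at 21.3 ± 9.88 (SD, n = 3). All 4 other heat shock factor genes had lower means. Hsf2, a factor of development and stress, had 6.73 ± 2.93 TPM, Hsf4, a factor known from the lens, 3.36 ± 0.942 TPM, Hsf3 1.23 ± 0.586 TPM and Hsf5 0.0867 ± 0.0569 TPM. Of the 5 heat shock factor genes, 3 reached 1 TPM in every library.

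The genes closest to Hsf1 in level, by Euclidean distance between their log2(TPM + 0.1) values in the 3 libraries, were Polr3gl at a distance of 0.04, and Rpl34 and Cd300lb, both at 0.09. Polr3gl, which encodes a subunit of RNA polymerase III, had 12.5, 20.1 and 31.9 TPM. Over 3 libraries of 1 group this says only that the levels were close, and all coding genes share the lower TPM scale of replicate 1.

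Hspa1a (ENSMUSG00000091971.3, chr17:34969190-34972156, minus strand) and Hspa1b (ENSMUSG00000090877.3, chr17:34956436-34959238, minus strand) are neighbouring copies of the stress-inducible HSP70 gene, each with 1 annotated transcript of 1 exon. RefSeq windows of GRCm38.p6, 250 bases before to 50 after each start, were matched for 6 of the 10 members, all but Hspa8, Hsp90aa1, Hsp90ab1 and Hsf1. The 250 upstream bases of both genes are printed 5′ to 3′ on the minus strand because they show how alike the copies are; capitals mark the 8-base match to GAANNTTC, an inverted pair of heat shock units.
Hspa1a, chr17:34972157-34972406: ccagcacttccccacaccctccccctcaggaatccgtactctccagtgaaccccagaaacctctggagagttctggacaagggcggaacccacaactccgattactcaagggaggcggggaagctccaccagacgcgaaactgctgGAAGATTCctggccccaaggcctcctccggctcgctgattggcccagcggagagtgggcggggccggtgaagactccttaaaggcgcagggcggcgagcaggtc
Hspa1b, chr17:34959239-34959488: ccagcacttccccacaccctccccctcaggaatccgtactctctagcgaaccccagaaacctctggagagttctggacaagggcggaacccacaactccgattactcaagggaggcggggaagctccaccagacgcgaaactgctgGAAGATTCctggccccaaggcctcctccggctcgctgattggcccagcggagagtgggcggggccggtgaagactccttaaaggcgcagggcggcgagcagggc
The 300-base windows differed at 4 positions, C44T, T47C, T249G and C276T, counted from 1 at the 5′ end with the base of Hspa1a first, and the first 3 of these lie upstream. In both, the match began 104 bases before the start. Searched on both strands, GAANNTTC occurred in 7.86% of all 32851 RefSeq windows and TTCNNGAA in 8.52%, and 15.1% held at least 1 of the pair. Such a match describes letters and is not evidence of binding.

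Hspa1a had 1.21, 1.15 and 1.57 TPM, from 93, 66 and 59 expected counts, in replicates 1, 2 and 3. Hspa1b had 0.840, 0.560 and 0.800 TPM, from 61, 30 and 29 expected counts. Hspa1a was the higher of the copies in every library, and the ranges of the copies did not overlap. The deposited credibility intervals of the estimates overlapped in replicate 1 (0.914 to 1.44 TPM for Hspa1a, 0.588 to 1.06 for Hspa1b) and in replicate 3 (1.07 to 1.88 and 0.439 to 1.09). They were apart in replicate 2 (0.797 to 1.37 and 0.333 to 0.778). Hspa1a took 60.5%, 68.8% and 67.6% of the expected counts assigned to the pair, or 65.6% ± 4.46 (SD, n = 3). From the reads directly, the authors' second tables gave a share of 65.8% ± 4.11.

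The division of reads between the copies is uncertain. Of the 31-base words of the Hspa1a transcript (2967 bases), 63.8% also occurred in the Hspa1b transcript (2803 bases), and 67.5% in the opposite direction. Within the coding sequence the shared part was 88.4% and 88.3%, and outside it 18.9% and 22.5%. That left 1064 words found only in Hspa1a and 900 found only in Hspa1b to tell the copies apart. No word of the Hspa1a transcript occurred in Hspa8-202, a coding transcript of the constitutive gene. Gm20481, annotated as protein-coding on the opposite strand within the span of Hspa1a (chr17:34969912-34972136), had 0 counts in both sets of tables. How the counting treated strand is not known here, so reads of Hspa1a and Gm20481 could not be separated by it.

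Hspa8 (ENSMUSG00000015656.17, chr9:40800984-40810087, plus strand) encodes HSC70, the constitutive cytosolic HSP70, and was the highest member, ranked 238 among the protein-coding genes. It had 119.7, 72.0 and 149 TPM and 350.2, 188 and 273 normalised CPM in replicates 1, 2 and 3. Replicate 2, with the least starting RNA, was lowest on both scales. The normalised coefficient of variation was 30.1%, and the highest library was 1.87-fold above the lowest. Spp1, which encodes the secreted protein osteopontin, lay nearest to Hspa8 at a distance of 0.15, with 112, 69.2 and 139 TPM. Klf6, a Kruppel-like transcription factor gene, followed at 0.19 and Gadd45b, a stress-response gene, at 0.33.

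The 3 small nucleolar RNA genes within the span of Hspa8, on the same strand, are Snord14c (chr9:40803583-40803668), Snord14d (chr9:40803995-40804080) and Snord14e (chr9:40804748-40804837). Box C/D RNAs of this kind are processed from introns of their host gene and guide the methylation of ribosomal RNA. Their effective length was 0 in the gene tables, and they are listed there at 0 counts. In the second set of tables Snord14d had 238, 158 and 92.8 estimated counts in replicates 1, 2 and 3, and Snord14c had 166, 142 and 52.8. Snord14e had 8.36, 2.62 and 0. Snord14c and Snord14d were highest in replicate 1 and lowest in replicate 3, whereas the host gene was lowest in replicate 2. These counts are not scaled for depth, and the second tables held 25308591, 27754284 and 21107490 estimated counts in replicates 1, 2 and 3. Small nucleolar RNA as a class was highest in replicate 1 by its share of TPM in the gene tables. That is another measure, to which the Snord14 genes, listed there at 0 counts, add nothing.

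Hspa5 (ENSMUSG00000026864.13, chr2:34771970-34777547, plus strand) encodes BiP, the HSP70 of the endoplasmic reticulum, which also holds the sensors of the unfolded protein response inactive. Hspa5 had 74.6, 62.2 and 86.7 TPM and 228, 191 and 167 normalised CPM in replicates 1, 2 and 3. The library with the lowest value was replicate 2 in TPM and replicate 3 in CPM. Its RefSeq window held no match to GAANNTTC or TTCNNGAA but did hold the ER stress element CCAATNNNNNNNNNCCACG, 65 bases before the RefSeq start. That start lies inside the gene span given above, and so does the element. The 30 bases around it are printed on the plus strand to show the element, in capitals.
Hspa5, chr2:34772020-34772049: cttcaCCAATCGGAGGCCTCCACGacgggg
Searched on both strands, this element occurred in 0.119% of all windows. CCAAT alone occurred 4 times in the Hspa5 window, with 1 match inside the element, and in 37.4% of all windows at least once.

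Hsp90ab1 (ENSMUSG00000023944.14, chr17:45567775-45573271, minus strand) encodes the constitutive cytosolic HSP90 and Hsp90aa1 (ENSMUSG00000021270.13, chr12:110690605-110702728, minus strand) the inducible form. Hsp90ab1 had 26.0, 33.7 and 46.9 TPM and 47.1, 56.3 and 43.8 normalised CPM in replicates 1, 2 and 3. Hsp90aa1 had 11.3, 14.2 and 23.8 TPM and 32.7, 39.0 and 44.9 normalised CPM. In gene TPM, which sums coding and other isoforms, the constitutive gene was above the inducible one in every library, and each was lowest in replicate 1. On isoforms annotated as coding, that order held in replicates 1 and 2 but was reversed in replicate 3. There coding isoforms took 25.6% of the TPM of Hsp90ab1 against 59.3% for Hsp90aa1. Their paralogues were also present: Hsp90b1, the HSP90 of the endoplasmic reticulum, had 85.0 ± 17.3 TPM and Trap1, the mitochondrial one, 19.7 ± 5.41 TPM (SD, n = 3). All 4 HSP90 genes reached 1 TPM in every library.

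Hsph1 and Dnajb1 encode partners of HSP70. Hsph1 (ENSMUSG00000029657.15, chr5:149614287-149636376, minus strand), an HSP110 exchange factor, had 3.14, 5.05 and 6.39 TPM from 157, 174 and 150 expected counts. Dnajb1 (ENSMUSG00000005483.10, chr8:83608193-83612653, plus strand), the HSP40 that loads clients onto HSP70, had 0.770, 1.22 and 1.74 TPM from 59, 70 and 66 counts. Both were lowest in replicate 1 in TPM and in normalised CPM. RefSeq gives Hsph1 a pair of overlapping windows, and both held TTCTCGAA upstream and the 3-unit match TTCTGGAAAGTTC downstream of the RefSeq start. Measured from 1 of the starts, these lay 33 bases before it and at bases 37 to 49 after it. Both starts and both matches lie inside the gene span given above. The 30 bases around the upstream match are printed on the minus strand, with the match in capitals.
Hsph1, chr5:149636351-149636380: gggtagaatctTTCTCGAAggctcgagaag
A 3-unit match, GAANNTTCNNGAA or TTCNNGAANNTTC on either strand, occurred in 0.603% of all windows. Neither RefSeq window of Dnajb1 held a match to any of the heat shock element letters searched.

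Hspb1 (ENSMUSG00000004951.10, chr5:135887919-135889563, plus strand) encodes HSP27, a small heat shock protein that holds unfolded proteins without using ATP. It had 0.490, 0.620 and 0.630 TPM from only 10, 9 and 6 counts, whose exact 95% Poisson intervals were 4.80 to 18.4, 4.12 to 17.1 and 2.20 to 13.1 counts. These intervals cover counting error only, and differences between its libraries were not detectable at this depth. Its window held 2 matches to GAANNTTC, beginning 117 and 97 bases before the start, which are printed in capitals on the plus strand to show both.
Hspb1, chr5:135887759-135887858: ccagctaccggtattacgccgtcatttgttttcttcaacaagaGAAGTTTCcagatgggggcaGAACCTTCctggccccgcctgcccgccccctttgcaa
None of the 9 small heat shock protein genes on the list reached 1 TPM in every library and 5 had no count. The highest were Hspb6 at 1.40 ± 0.965 TPM and Hspb9 at 1.37 ± 0.655 TPM, and Hspb7 had 0.117 ± 0.0493 TPM (SD, n = 3).

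Neighbours in the order of levels were compared by the difference of log2(TPM + 0.1) within each library. From the top, Hspa8 exceeded Hspa5 by 0.56 ± 0.31 (mean ± SD over 3 libraries), Hspa5 exceeded Hsp90ab1 by 1.09 ± 0.37, and Hsp90ab1 exceeded Hsf1 by 0.80 ± 0.25. Hsf1 exceeded Hsp90aa1 by 0.34 ± 0.17, Hsp90aa1 exceeded Hsph1 by 1.72 ± 0.22, and Hsph1 exceeded Hspa1a by 1.77 ± 0.40. Each of these 6 differences was larger than its SD and had the same sign in 3 of 3 libraries. With 3 libraries an exact 2-sided sign-flip permutation test cannot go below p = 0.25, so none of them can pass a 0.05 threshold. Gene TPM also sums all annotated isoforms, coding or not. Isoforms annotated as coding took 29.3% of the TPM of Hspa8 against 64.3% for Hspa5. They took 22.9% for Hsf1 against 55.2% for Hsp90aa1. The order therefore need not hold for coding isoforms alone, which were not ranked here across the members. The 3 differences below Hspa1a did not exceed their SD: 0.12 ± 0.41 to Dnajb1, 0.64 ± 0.65 from Dnajb1 to Hspa1b, and 0.28 ± 0.40 from Hspa1b to Hspb1. Pairs farther apart among these 4 did exceed their SD, in 3 of 3 libraries each. Hspa1a was above Hspa1b by 0.76 ± 0.25 and above Hspb1 by 1.05 ± 0.22, and Dnajb1 was above Hspb1 by 0.92 ± 0.39.

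The second set of transcript tables, summed per gene, changed part of this order. There Hspa8 and Hspa5 had 120.1 ± 53.8 and 112 ± 31.8 TPM and differed by 0.02 ± 0.33 on the log2 scale. Hsp90aa1 stood at 38.4 ± 10.5 TPM, 2.34-fold its value in the gene tables, and was above Hsf1 in every library, with a difference from Hsf1 to Hsp90aa1 of -0.56 ± 0.23. The additional TPM of Hsp90aa1 lay mainly in short retained-intron isoforms. Hsp90aa1-204, of 325 bases, had 0, 1.22 and 0 TPM in the first transcript tables and 9.86, 6.37 and 8.98 TPM in the second. The long coding isoform Hsp90aa1-202 had 3.88, 5.52 and 10.4 TPM in the first and 4.06, 4.54 and 8.83 TPM in the second. Among the low genes, Hspa1a stayed above Hspa1b by 0.77 ± 0.21 and Dnajb1 above Hspb1 by 0.70 ± 0.40, in 3 of 3 libraries each. Hspa1a was above Hspb1 by only 0.12 ± 0.15, in 2 of 3 libraries. Hspb1 was above Hspa1b in every library (Hspa1b minus Hspb1 -0.65 ± 0.30), and so was Dnajb1, by 1.35 ± 0.69. Hspa1b, at 0.663 TPM, was then the lowest member, with Hspb1 at 1.07 TPM. In the second set 7 members again reached 1 TPM in every library, but with Dnajb1 in place of Hspa1a.

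**Figure D2:**
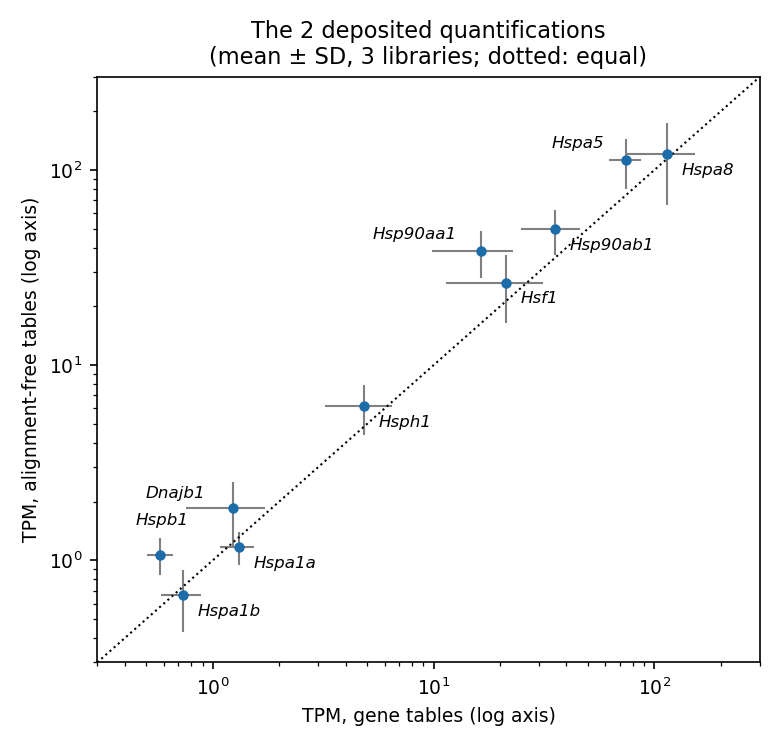
Mean TPM of each member in the gene tables (horizontal, log axis) against the mean TPM summed per gene from the second set of transcript tables (vertical, log axis), with SD over 3 libraries as bars; the dotted line marks equal values. Hsp90aa1 lies farthest above the line, at 16.4 against 38.4 TPM, and Hspa1a and Hspa1b lie just under it.

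Starting RNA was the only label that differed between the libraries, and each gene's slope on its log2 value was fitted in edgeR over all 13985 genes that passed the filter on low counts. Hspb1 did not pass it, so 9 of the 10 members were tested. No member passed an adjusted p of 0.05 (edgeR quasi-likelihood test, Benjamini-Hochberg over all genes tested), beside 1.14% of all genes tested, made up of 144 genes (1.03%) higher and 16 genes (0.114%) lower with more RNA. At an unadjusted p below 0.05 in edgeR there was 1 member, Hspa8, beside 6.97% of all genes tested. DESeq2 likewise called 0 members, with 1 at that unadjusted level, beside 75 and 414 of the same 13985 genes. For Hspa8 the edgeR slope was 0.45 ± 0.18 log2 units per doubling of starting RNA, with unadjusted p = 0.0194 and adjusted p = 0.485. Here and for Hspa1b the value after ± is an approximate SE, the absolute slope over the square root of the test statistic F. Hspa1b followed with 0.41 ± 0.27 and an adjusted p of 0.940 in edgeR. The other 7 slopes lay between -0.24 for Dnajb1 and 0.13 for Hspa5 and Hspa1a. With 3 libraries, starting RNA and any other difference between them cannot be told apart.

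Slopes were positive for the 4 HSP70 members, Hspa8, Hspa5, Hspa1a and Hspa1b, and negative for Hsf1, both HSP90 members, Hsph1 and Dnajb1, except that the slope of Hsp90ab1 was 0.01 in the second set of tables. Of these 9 signs 5 turned without replicate 1, where the slopes were -0.21 for Hspa5, -0.19 for Hspa1a, -0.08 for Hspa1b, 0.08 for Hsf1 and 0.19 for Hsp90aa1, while Hspa8, Hsp90ab1, Hsph1 and Dnajb1 kept theirs. Without replicate 2 the slope of Hsp90ab1 turned to 0.10. Slopes over the remaining pair of libraries have no residual degrees of freedom and no test. In normalised CPM all 4 HSP70 members were highest in replicate 1, with 228 CPM against 191 and 167 for Hspa5 and 3.72 against 2.15 and 2.06 for Hspa1b. Hsf1, Hsp90aa1, Hsph1 and Dnajb1 were each lowest in replicate 1, and Hsp90ab1 was lowest in replicate 3. The other HSP70 and HSP110 genes did not share the positive sign: of 8 tested, 2 had a positive slope, 5 a negative one and 1, Hspa14, 0.00. Hspa9 had -0.08 and Hspa4 -0.13. These are signs of values that did not pass the test, and no group difference was tested. Tagwise biological coefficients of variation were 24.1% for Hspa8 and 26.6% for Hspa1b and lay between 18.4% and 21.6% for the other 7, with a member median of 19.2% beside 19.8% over all genes tested.

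**Figure D3:**
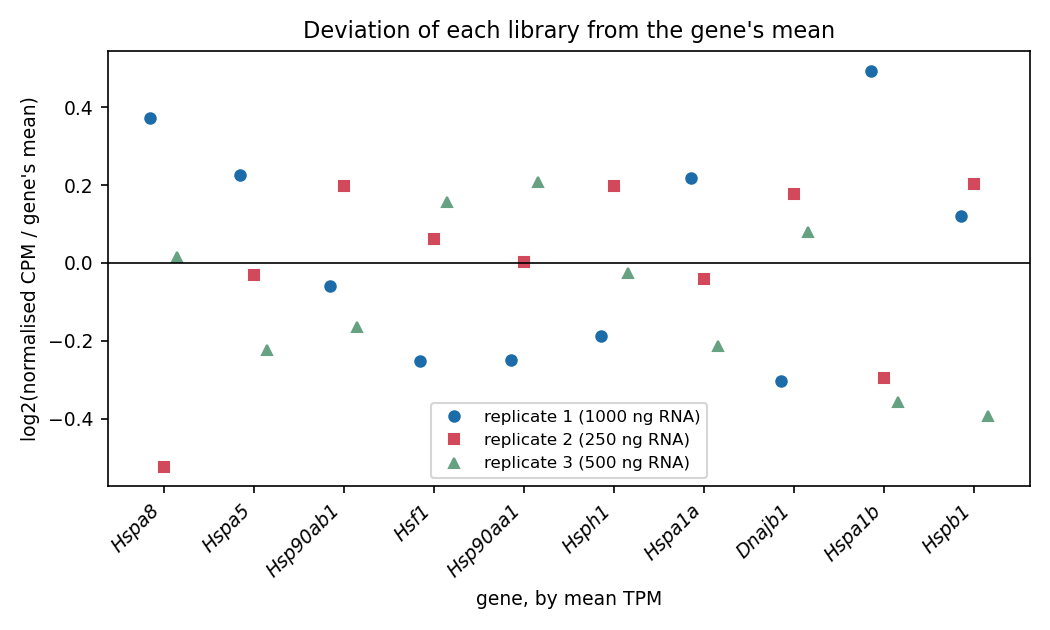
Deviation of each library from the gene's own mean, as log2 of TMM-normalised CPM over the mean, with 1 point per library for the 10 members. The 4 HSP70 genes have replicate 1 on top, and Hsf1, Hsp90aa1, Hsph1 and Dnajb1 have it at the bottom.

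Reads of a gene were divided by the authors among its annotated isoforms, of which Hspa8 has 10, Hspa5 6, Hsp90ab1 8, Hsf1 16, Hsp90aa1 8 and Hsph1 11. Isoforms annotated as retained intron or processed transcript, which carry no annotated reading frame, took a large part of the TPM of these 6 genes. Their share was 73.9% ± 1.84 for Hsph1, 70.7% ± 5.32 for Hspa8, 65.5% ± 9.13 for Hsp90ab1, 52.2% ± 6.23 for Hsf1, 44.8% ± 4.67 for Hsp90aa1 and 34.6% ± 7.06 for Hspa5 (SD, n = 3). The median over the 6 was 53.0%, 58.5% and 64.0% in replicates 1, 2 and 3, beside 49.0%, 46.2% and 48.9% over the 7454 protein-coding genes that have one of these isoforms and passed the 1 TPM limit. Hspa1a, Hspa1b, Dnajb1 and Hspb1 have no isoform of these types, so nothing can be said of them.

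The same reads gave another picture per count than per TPM. Short retained-intron models weigh heavily in TPM, and by expected counts these types took only 5.66% ± 2.07 of Hspa5 and 10.8% ± 2.28 of Hsp90aa1. The share by counts stayed at 69.0% ± 6.34 for Hspa8, 52.6% ± 7.94 for Hsph1, 40.6% ± 4.56 for Hsf1 and 32.3% ± 5.25 for Hsp90ab1. In these tables such isoforms thus held the larger part of Hspa8 by either measure in every library, and the smaller part of Hspa5 and Hsp90aa1. For Hsph1 the share by counts was 55.5%, 43.6% and 58.6% in replicates 1, 2 and 3, on both sides of an even split. In the second set of tables the TPM shares were 75.4% for Hspa8, 49.2% for Hspa5, 54.8% for Hsp90ab1, 51.5% for Hsf1, 70.8% for Hsp90aa1 and 76.3% for Hsph1. Hsp90aa1 moved most between the sets, from 44.8% to 70.8%.

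In Hspa8 a single long retained-intron isoform, Hspa8-208 (3158 bases, 4 exons), held 3312, 1311 and 2221 expected counts in replicates 1, 2 and 3. The main coding isoform Hspa8-202 (2019 bases, 9 exons) held 1420, 590 and 909. Hspa8-208 was above it in every library and took 33.3% ± 3.67 of the gene's TPM. In Hsf1 the counts were spread: the isoform Hsf1-211, annotated as a target of nonsense-mediated decay, held 146, 135 and 181, the retained-intron isoform Hsf1-208 128, 124 and 169, and the coding isoform Hsf1-214 124, 120 and 95. Isoforms annotated as coding took 22.9% ± 4.80 of the TPM of Hsf1 and decay targets 24.9% ± 4.30. In Hsph1 the retained-intron isoform Hsph1-204 held 57, 41 and 62 counts and the coding isoform Hsph1-211 33, 58 and 61, so neither led in every library. Coding isoforms held the most counts in Hspa5 and in both HSP90 genes. Hspa5-201 and Hspa5-202 held 1767 and 1672 counts in replicate 1, and Hsp90aa1-202 held 333, 356 and 440.

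**Figure D4:**
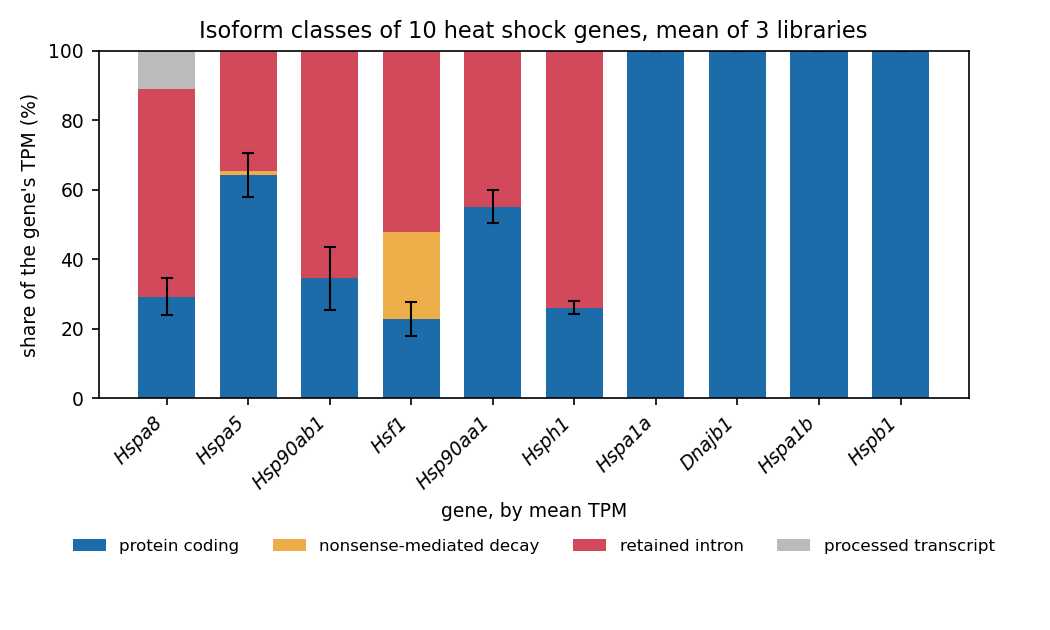
Share of each gene's TPM (percent, mean over 3 libraries) in isoforms annotated as protein coding, nonsense-mediated decay, retained intron and processed transcript; error bars are the SD of the coding share. Retained-intron and processed transcripts together take 65.5% or more of Hsph1, Hspa8 and Hsp90ab1, and the 4 genes without such isoforms are wholly coding.

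The rest of the chaperone network was taken from lists by role, together 88 genes besides the members. Of these, 65 (73.9%) reached 1 TPM in every library, beside 70.0% of the members and 40.6% of all protein-coding genes. Among the HSP70 and HSP110 genes 10 of 15 did. Hspa9, the mitochondrial HSP70, had 32.6 ± 8.33 TPM, Hspa4, an HSP110, 23.4 ± 4.36 TPM and Hspa14 22.7 ± 3.99 TPM, whereas Hspa12a had 0.0900 ± 0.0700 TPM (SD, n = 3). Of the J-domain genes 14 of 17 did, led by Dnajc7 at 109 ± 26.2 TPM, Dnajb6 at 91.2 ± 20.1 TPM and Dnaja1 at 45.4 ± 22.2 TPM, each well above the member Dnajb1. Dnaja4 was lowest at 0.190 ± 0.199 TPM.

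Co-chaperones reached 1 TPM in 17 of 21 cases. Bag6, a chaperone of tail-anchored and mislocalised proteins, had 62.9 ± 15.6 TPM, Chordc1, an HSP90 partner, 31.6 ± 11.4 TPM, Ppid, an HSP90-bound cyclophilin, 20.1 ± 5.24 TPM, and Bag2 0.440 ± 0.324 TPM (SD, n = 3). Chaperonin genes did so in 9 of 10 cases, with the ring subunits Cct8 at 16.6, 20.0 and 26.3 TPM, Cct4 at 17.7 ± 6.86 TPM and Cct2 at 11.9, 18.1 and 17.9 TPM. Hspe1, the mitochondrial co-chaperonin, was lowest at 1.58 ± 0.715 TPM, but had 12.3 TPM in the second set of tables and was not the lowest there. Genes of endoplasmic reticulum folding and its stress response, the setting of Hspa5, reached 1 TPM in 20 of 23 cases. Calr, the calcium-binding lectin chaperone calreticulin, had 66.5 ± 15.8 TPM, Ern1, a sensor of the response, 34.5 ± 7.27 TPM, and Serpinh1, the collagen chaperone, 0, 0.190 and 0.150 TPM in replicates 1, 2 and 3.

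**Figure D5:**
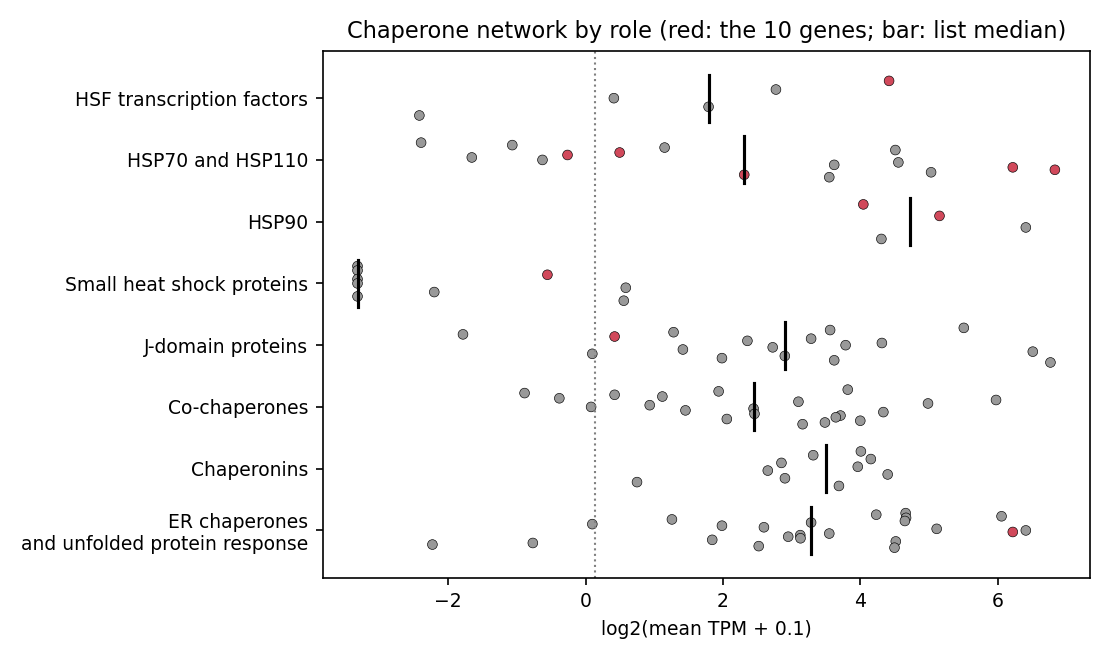
Level of each listed gene as log2(mean TPM + 0.1), grouped by role, with members and other genes in different colours, the list median as a bar and 1 TPM as a dotted line. All HSP90 genes lie above the line, and the small heat shock proteins have the lowest median, with 5 of 9 at no counts.

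The slope on starting RNA could be fitted for 74 of the 88 network genes. None passed an adjusted p of 0.05 in edgeR or in DESeq2, again beside 1.14% of all genes tested in edgeR. At an unadjusted p below 0.05 there was 1 in edgeR, beside 6.97% of all genes tested. In DESeq2 there were 0 at that level, beside 414 of the 13985 genes. Slopes were positive for 30 and negative for 44, beside 7090 positive and 6895 negative over all genes tested. Trap1 had the slope farthest from 0 among the named HSP90 genes, at -0.30 with an adjusted p of 0.842 in edgeR.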

How the data were processed

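Ribosome-depleted total RNA of the chromatin fraction was measured in 3 libraries of 1 group. The authors deposited expected counts and TPM per gene and per transcript, made from an alignment file, and a second set of transcript tables with estimated counts and TPM made directly from the reads, against mm10 with annotation M21, per the file headers and the labels. The deposited signal columns pair each TPM estimate with a credibility interval, which they bound from below and above. The TPM estimate itself can lie outside its interval. In replicate 3 Hspa8 had 149 TPM with an interval of 131 to 148, and Hspa5 had 86.7 TPM with 74.5 to 86.6. Which aligner, quantifiers and strand setting were used is not given in these sources.

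Of the rows of the gene tables, 26345 were not annotated genes and were left out, with 0.299% to 1.08% of the counts. Expected counts were rounded to whole numbers and fitted with edgeR 4.0.16 (R 4.3.3; TMM, filterByExpr, quasi-likelihood test of the slope on log2 starting RNA, Benjamini-Hochberg). DESeq2 1.42.0 was an alternative. The fit has 1 residual degree of freedom per gene. It was run on simulated data in which all genes shared the same dispersion and planted slopes were steeper than that of any member. Those data cannot show how well slopes as small as the members' are found. Each library's floor, 3 counts, was 0.184 to 0.241 CPM. Log2 levels used a pseudocount of 0.1 TPM. Python 3.11.15, numpy 2.4.6, pandas 2.3.3, scipy 1.17.1 and matplotlib 3.10.9 were used for the rest. Sequences are those of RefSeq on GRCm38.p6, and transcript words those of GENCODE M21.

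The members, lists and tests were chosen with earlier results of these data known. Named genes were all members, the 3 highest non-members and the lowest measured gene of each list (all genes of lists of at most 5), the 3 protein-coding genes nearest to Hspa8 and to Hsf1, genes overlapping a member, and the highest and lowest marker. Alternatives were other quantifications, normalisations, filters, limits, pseudocounts and leaving out each library.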

Additional observations from a re-analysis of the deposited data

How the results depend on the processing

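The group is a single one with 3 libraries, and untreated cells were not analysed here. No paired analysis was possible because there is 1 group. The number of members at 1 TPM, 7 at first, stayed between 6 and 10 under the alternatives tried. It was 6 at a limit of 2 TPM. All 10 reached 1 TPM when TPM was rescaled over protein-coding genes, where Hspb1 had a mean of 3.03 TPM. Which members fall below 1 TPM thus depends on the share of TPM taken by other RNA classes. The median member level, 3.18 on the log2 scale, became 5.49 when TPM was rescaled over protein-coding genes, which follows from the rescaling itself. Genes higher with more starting RNA, 144 in edgeR with TMM, numbered 63 with DESeq2's size factors in edgeR, 77 in DESeq2, 226 without a filter and 231 from the second set of tables. Genes lower with more RNA, 16 at first, numbered 3, 2, 58 and 36 in the same order. The cause was not tested. No member was called in any of these fits. In the second set of tables the difference from Hsf1 to Hsp90aa1 was reversed, at -0.56, as was the slope of Hsp90ab1, at 0.01; the cause was not tested. Leaving out each library in turn moved the slope of Hspa1b between -0.08 and 0.85 and that of Hsp90ab1 between -0.38 and 0.10. Counts of 6 to 93 limit Hspb1, Hspa1b, Dnajb1 and Hspa1a.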

Other observations

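Between the first and the second quantification some chaperone genes outside the 10 members differed more than any member did. Of 72 network genes, members included, at 1 TPM in every library, 5 had a mean TPM more than 3 times as high in the second set, or 6.94%, beside 7.76% of 8942 protein-coding genes. Dnajb6, a J-domain gene, had 91.2 ± 20.1 TPM in the first and 442 ± 151 TPM in the second (SD, n = 3). The isoform that differed most was the 218-base model Dnajb6-211, listed at 0 in the first and at 137 TPM in the second. For the chaperonin subunit genes Tcp1 and Cct6a, at 12.8 against 42.9 and 15.5 against 50.2 TPM, the isoforms that differed most were the retained-intron models Tcp1-205 (0.927 against 27.2 TPM) and Cct6a-203 (0.840 against 31.5 TPM). Dnaja2 differed likewise through Dnaja2-202 (4.96 against 27.0 TPM), and Hspbp1 had 2.64 against 9.90 TPM. Besides Dnajb6, these 4 genes were chosen after their values were seen, and the cause was not tested.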
